A study of Mus musculus with 4 samples.

Results

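The enzymes of glycolysis, lactate formation, the pentose phosphate pathway, pyruvate oxidation and the TCA cycle were followed in nuclei of the 5XFAD mouse brain. The members were the rows of the 4 count matrices whose symbol is 1 of 42 listed enzymes. All 42 symbols were found among 32245, on 43 of 32285 rows, because Aldoa has 2 rows. They comprise 15 enzymes from hexokinase to pyruvate kinase, 2 lactate dehydrogenase subunits, 7 enzymes of the pentose phosphate pathway, 3 subunits of pyruvate dehydrogenase and 15 enzymes of the TCA cycle or their cytosolic counterparts.

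Glycolysis splits glucose into pyruvate in the cytosol, lactate dehydrogenase interconverts pyruvate and lactate, and the pentose phosphate pathway branches off at glucose 6-phosphate to make NADPH and ribose. Pyruvate dehydrogenase feeds acetyl-CoA from pyruvate into the TCA cycle, which runs in mitochondria. In the brain, astrocytes are known for glycolysis and lactate release and neurons for oxidative metabolism, and several steps are served by isozymes that differ between cell types.

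All mice were female 5XFAD mice, which carry human transgenes with familial Alzheimer's disease mutations under the neuronal Thy1 promoter and form amyloid plaques, and were 7 to 10 weeks old when treated. They received extracellular vesicles (EVs) into a vein. These were vesicles of adipocyte origin from which nucleic acids and proteins had been removed, with a low (PE-low) or a high (PE-high) content of phosphatidylethanolamine (PE). Each group had 2 libraries of whole brain nuclei, each pooled from 2 mice and isolated from frozen sections, so n = 2 libraries per group. The p-values of PE-high against PE-low measure the spread between such pools. Those of class comparisons, made within libraries, measure how class differences vary from library to library, over all classes fitted. Groups given buffer alone or wild-type mice were not analysed here.

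The 4 libraries held 29472021 to 43272337 UMIs (unique molecular identifiers, each standing for 1 captured transcript). With the limits stated in the paper, 200 to 2500 genes and at most 3% mitochondrial UMIs, 10689 nuclei were kept: 2778 and 2996 from the PE-low libraries and 1457 and 3458 from the PE-high libraries. Libraries shared 0 to 4 kept barcodes. PE-high replicate 1 gave the fewest nuclei, and the median mitochondrial share of its called nuclei was 7.69%, against 3.86% to 5.14% in the other libraries. A limit of 15% kept 37527 nuclei and served as an alternative throughout. The paper states the 3% limit, but the number of nuclei it reports is close to this larger set. The main set here thus holds far fewer nuclei than the study reports. Nuclei were clustered without the members and named by markers into 8 classes, each called "-like": 4428 excitatory neuron-like, 2669 striatal projection neuron-like, 1961 inhibitory neuron-like, 549 oligodendrocyte-like, 471 astrocyte-like, 231 oligodendrocyte precursor-like, 164 microglia-like and 51 neuroblast or cycling-like nuclei.

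The glial classes held their own markers but not those alone. In astrocyte-like nuclei all 7 astrocyte markers had UMIs, and their summed level was 5142 to 9895 counts per 1000000 UMIs (CPM), against 683 to 810 CPM in excitatory neuron-like nuclei. All 10 excitatory neuron markers were also present there, at a summed 1736 to 2096 CPM, against 2174 to 2436 CPM in the excitatory neuron-like class. Microglia-like nuclei had UMIs of 7 of 8 microglial markers, all but C3, at a summed 1325 to 2347 CPM. All 8 striatal projection neuron markers were there too, at a summed 1463 to 2125 CPM that was above the microglial sum in 3 of 4 libraries, together with all 7 oligodendrocyte markers at 299 to 1697 CPM and all 10 excitatory markers at 1187 to 2138 CPM. In oligodendrocyte-like nuclei the 7 oligodendrocyte markers summed to 7188 to 11503 CPM and the 10 excitatory markers to 951 to 1399 CPM. Oligodendrocyte precursor-like nuclei held their 6 own markers at 6995 to 10289 CPM and all 9 inhibitory neuron markers at 3816 to 5592 CPM. Inhibitory neuron-like nuclei held those 9 at 3192 to 4392 CPM. In neuroblast or cycling-like nuclei the 9 inhibitory markers, at 2950 to 10283 CPM, stood above the 5 own markers, at 548 to 2465 CPM. Clusters with strong neuronal markers contained 92 of the 164 microglia-like, 51 of the 471 astrocyte-like, 48 of the 549 oligodendrocyte-like and 33 of the 231 oligodendrocyte precursor-like nuclei. The part of such foreign RNA in the class differences below was not tested, beyond leaving these clusters out, a comparison chosen after the clusters were seen. Then 11 members were called in astrocyte-like (54.9% of all genes), 12 in oligodendrocyte-like (52.6%), 8 in oligodendrocyte precursor-like (42%) and 3 in microglia-like nuclei (38.1%), against 13, 11, 9 and 3 in the full classes described next.

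Lactate dehydrogenase is made of 2 subunits, Ldha and Ldhb, of which the study names Ldhb, and a promoter of each is shown because these 2 differ in a short motif. Both are the 250 bases before the gene's start in RefSeq on the mouse build GRCm38.p6, written in the direction of transcription. Capitals mark ACGTG or its reverse complement CACGT, 1 form of the core of the hypoxia response element and part of the E-box CACGTG, where both overlap. The other form of that core, GCGTG, was not counted as a match, and the Ldhb sequence holds it unmarked.
Ldha (chr7:46845554-46845803, plus strand): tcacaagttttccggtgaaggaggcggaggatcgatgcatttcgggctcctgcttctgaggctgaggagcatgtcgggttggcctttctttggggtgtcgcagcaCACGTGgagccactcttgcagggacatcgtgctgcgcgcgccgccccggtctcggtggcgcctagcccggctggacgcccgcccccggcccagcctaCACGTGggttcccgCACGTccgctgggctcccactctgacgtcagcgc
Ldhb (chr6:142507958-142508207, minus strand): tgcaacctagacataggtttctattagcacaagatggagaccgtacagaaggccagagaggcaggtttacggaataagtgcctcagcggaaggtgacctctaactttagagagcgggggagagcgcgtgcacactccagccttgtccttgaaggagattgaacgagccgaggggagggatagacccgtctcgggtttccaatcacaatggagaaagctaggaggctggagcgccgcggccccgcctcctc
The Ldha promoter shown, the first of 2 in the table, held 5 matches over both strands, an overlapping CACGTG giving 2. The second Ldha promoter (chr7:46846832-46847081) held 0, as did the Ldhb promoter. Among the 41 members with a promoter in the RefSeq table, 11 (26.8%) had a match in at least 1 promoter, against 18.5% of 27025 genes searched in the same way. These 41 members had 59 promoters and the 27025 genes had 32851, so members had more promoters each in which to find a match. The 2 shares are thus not on the same footing. A match describes letters only and is not a binding site.

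All 42 members were counted in the kept nuclei, from 38 UMIs for Hk2 to 3845 UMIs for Mdh1, the cytosolic malate dehydrogenase. The second Aldoa row, on chromosome 7 from 126800790 to 126809108 (mm10), held 15 UMIs and is left out of the counts of members. The level in nuclei was first set against 45000 near-empty barcodes per library, those ranked 45000 to 90000 by UMIs, taken here as mostly RNA free in the suspension. The members were largely lower in nuclei than there. Of 42 members, 34 had a lower CPM in nuclei in every library, and the median ratio of nuclei to near-empty barcodes was 0.327, against 0.873 over 12009 genes with at least 100 near-empty UMIs.

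The ratio differed by pathway. Its median was 0.272 over the glycolytic enzymes, 0.177 over the lactate dehydrogenase subunits, 0.493 over the pentose phosphate enzymes, 0.659 over the pyruvate dehydrogenase subunits and 0.535 over the TCA enzymes. Aldoa, an aldolase that splits fructose 1,6-bisphosphate, stood at a mean of 965 CPM in near-empty barcodes and 135 CPM in nuclei. Gapdh, which oxidises glyceraldehyde 3-phosphate, stood at 885 and 124 CPM, Aldoc at 672 and 81.3 CPM, and Ldhb at 633 and 110 CPM. Each of these 4 transcripts took a larger share of UMIs in near-empty barcodes than in nuclei. A few members went the other way. Ogdh, the catalytic subunit of 2-oxoglutarate dehydrogenase, stood at 93.7 CPM in near-empty barcodes and 123 CPM in nuclei, Rpia, the ribose 5-phosphate isomerase, at 5.89 and 11.2 CPM, and Rpe, the ribulose-phosphate 3-epimerase, at 16.5 and 22.2 CPM. The summed glycolytic level was 5134 ± 314 CPM (SD, n = 4 libraries) in near-empty barcodes, 1078 ± 66.4 CPM in all nuclei, 1389 ± 175 CPM in astrocyte-like and 1036 ± 67.3 CPM in excitatory neuron-like nuclei. The part of free RNA in the class differences was not tested, and the near-empty level is given beside them.

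**Figure D1:**
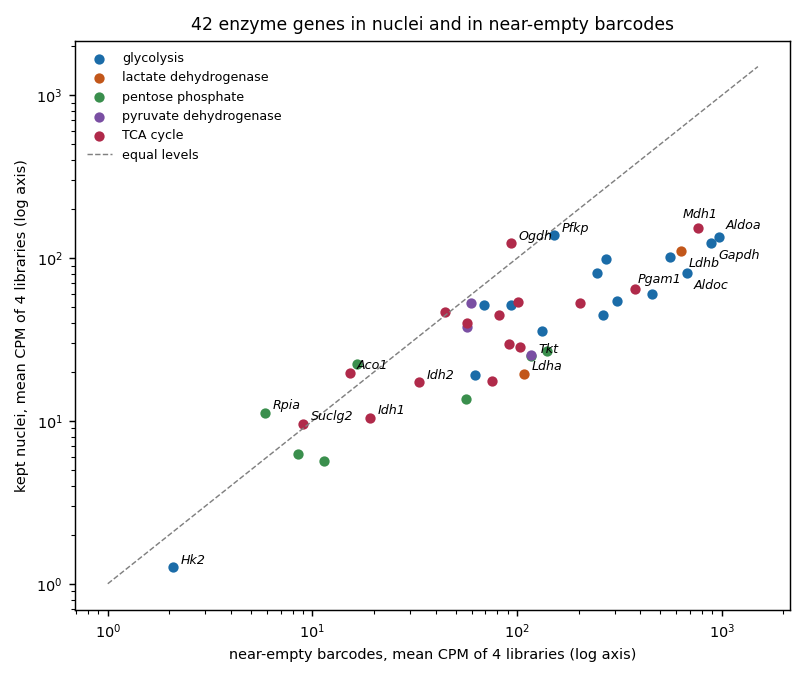
Mean level of each of the 42 enzymes over 4 libraries in near-empty barcodes (x axis, CPM, log scale) and in kept nuclei (y axis, CPM, log scale), coloured by pathway, with the line of equal levels. Most points lie below the line, Aldoa at 965 and 135 CPM among them, and Ogdh and Rpia lie above it.

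Which classes carry more of which enzyme was tested by comparing each class with excitatory neuron-like nuclei within libraries. UMIs were summed per class and library, and 5531 genes passed the filter on low counts, 27 of the 42 members among them. A gene passes if it reaches the filter's level in enough sums of any classes. Members low in excitatory neuron-like nuclei, Suclg2, Idh2, Suclg1 and Taldo1 among them, passed through other classes, including those where they are high. Raised calls of such members are not independent of the filter and are read as a description. The 15 members that did not pass and have no test here were Hk2, Pfkl, Ldha, G6pdx, Pgls, Pgd, Rpia, Rpe, Tkt, Pdha1, Aco1, Idh1, Idh3a, Idh3g and Fh1. A gene was called at an adjusted p under 0.1 by edgeR's quasi-likelihood test with Benjamini-Hochberg adjustment, n = 4 libraries per class. A higher CPM is a larger share of a class's UMIs and does not separate more RNA per nucleus from less of other RNA.

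Astrocyte-like nuclei had the most raised members: 13 of the 27 tested were raised and 0 lowered, where 25.5% of all tested genes were raised and 25.7% lowered. DESeq2 called 15 members, a count given without its share of all genes. The median log2 difference was 0.37 over members and 0.02 over all genes. The raised members were 4 of 13 tested glycolytic enzymes (Hk1, Aldoa, Aldoc and Eno1), Ldhb, Taldo1 of the pentose phosphate pathway, 0 of 2 pyruvate dehydrogenase subunits and 7 of 10 TCA enzymes (Cs, Idh2, Sucla2, Suclg1, Suclg2, Mdh1 and Mdh2). When PE-low replicate 2 was left out, the library with the most astrocyte-like nuclei, 5 members were called, and 2150 of all genes against 2833. In all, 34 of 39 tested members were called, 32 of them raised and 2 lowered, with the 15% mitochondrial limit, where 37.3% and 30% of all genes were raised and lowered. The 32 include Hk2, which passed the filter on low counts only through microglia-like sums.

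Aldoc, the brain aldolase (chr11:78322968-78327781, mm10), is known as an astrocyte marker. It stood at 173, 265, 186 and 162 CPM in the astrocyte-like nuclei of PE-low replicates 1 and 2 and PE-high replicates 1 and 2, and at 73.5, 61.8, 80.8 and 67.9 CPM in the excitatory neuron-like nuclei. The lowest astrocyte-like value was above the highest excitatory one, and the log2 difference was 1.47 ± 0.16 (SE; adjusted p = 3.26e-11). Its near-empty level of 672 CPM was above both classes.

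Idh2, the mitochondrial NADP-dependent isocitrate dehydrogenase (chr7:80094846-80115392), stood at 63.6, 45.8, 62.1 and 62.2 CPM in astrocyte-like and 11.4, 16.2, 15.2 and 11.02 CPM in excitatory neuron-like nuclei. The classes did not overlap, with a log2 difference of 1.95 ± 0.30 (adjusted p = 1.71e-07). Suclg2, the GTP-forming beta subunit of succinyl-CoA ligase (chr6:95473009-95718800), stood at 23.1, 45.8, 37.3 and 62.2 CPM against 9.08, 9.33, 8.51 and 8.34 CPM, again without overlap and with a log2 difference of 2.12 ± 0.38 (adjusted p = 5.28e-06). Both genes passed the filter on low counts through classes other than the excitatory neuron-like one, so their p-values are not read as support. Idh2 and Suclg2 were the 2 of 13 raised members whose astrocyte-like level exceeded the near-empty level (means 33.3 and 9.03 CPM) in all 4 libraries. For all 13, the near-empty mean was above the excitatory neuron-like mean. Near-empty barcodes, unlike nuclei, were not filtered on mitochondrial UMIs. With the 15% limit 7 of 32 raised members exceeded the near-empty level in all 4 libraries. These were Idh1, Aco1, Suclg2, Idh2, Cs, Pfkm and Hk2. For 31 of the 32 the near-empty mean was above the excitatory neuron-like mean.

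Ldhb stood at 231, 232, 99.4 and 124 CPM in astrocyte-like and 107, 79.3, 99.7 and 103 CPM in excitatory neuron-like nuclei. The PE-low libraries were high and the PE-high libraries overlapped the excitatory range, and the log2 difference over all libraries was 0.89 ± 0.18 (adjusted p = 3.03e-05). Suclg1, the alpha subunit shared by both succinyl-CoA ligases, stood at 80.9, 111, 86.9 and 99.5 CPM against 57.1, 39.5, 44.97 and 44.98 CPM, a log2 difference of 1.00 ± 0.22 (adjusted p = 0.000133). Suclg1 also passed the filter on low counts through classes other than the excitatory neuron-like one, so its p-value is not read as support. Of the members without a test, Idh1, the cytosolic isocitrate dehydrogenase, had 37 UMIs in astrocyte-like nuclei, at 63.6, 49.1, 62.1 and 37.3 CPM, against 12.01, 10.7, 6.08 and 8.64 CPM in excitatory neuron-like nuclei. Its values did not overlap between the classes, and with the 15% limit, where it was tested, its log2 difference was 2.30.

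**Figure D2:**
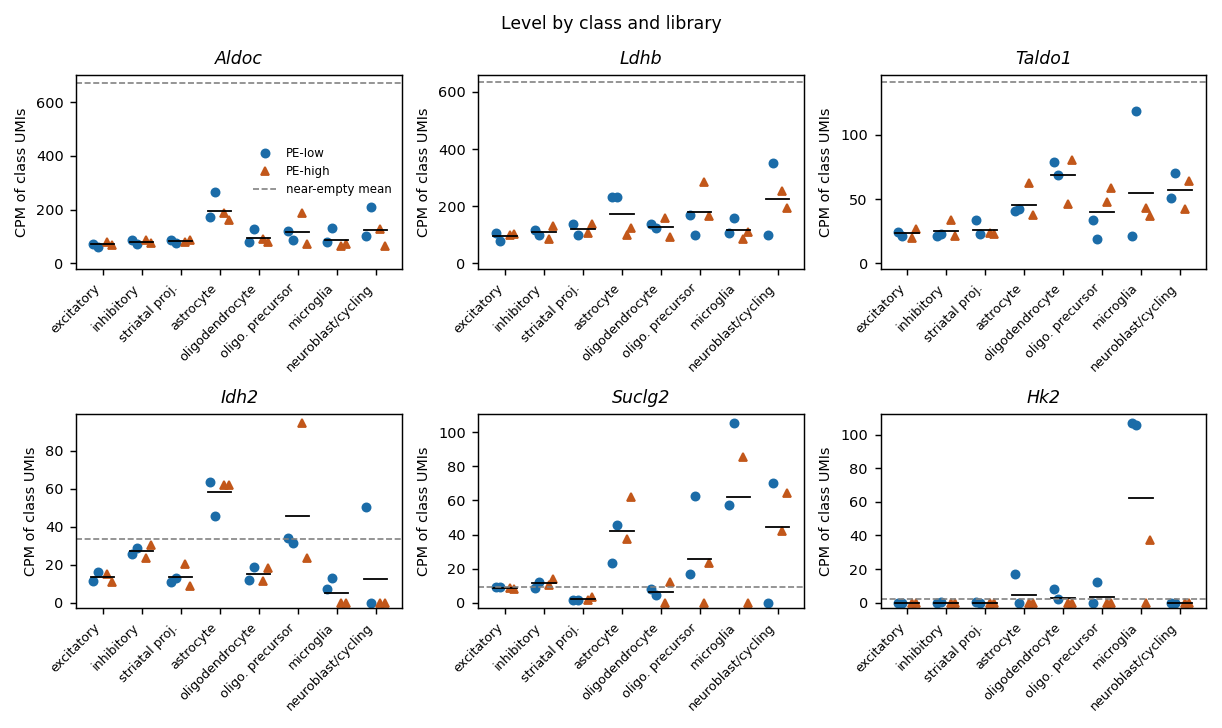
CPM per library (each point 1 of 4 libraries, y axis) of Aldoc, Ldhb, Taldo1, Idh2, Suclg2 and Hk2 in the named classes of nuclei (x axis), with PE-low and PE-high libraries in different colours, means as black lines and the mean near-empty level as a dashed line. Aldoc, Idh2 and Suclg2 stand higher in astrocyte-like than in excitatory neuron-like nuclei in every library, and Hk2 stands out in microglia-like nuclei.

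In oligodendrocyte-like nuclei 6 members were raised and 5 lowered, of 27 tested, where 24.7% and 26.7% of all genes were raised and lowered. The median log2 difference was 0.03 over members and 0.01 over all genes. Taldo1, the transaldolase of the non-oxidative pentose phosphate branch (chr7:141392199-141402968), stood at 79.0, 68.4, 45.8 and 80.1 CPM, against 24.6, 21.7, 20.1 and 26.8 CPM in excitatory neuron-like nuclei. The classes did not overlap, and the log2 difference was 1.47 ± 0.24 (adjusted p = 8.46e-07), and 1.93 with the 15% limit. Taldo1 passed the filter on low counts through classes other than the excitatory neuron-like one, so its p-value is not read as support. The other raised members were Pkm, the pyruvate kinase (log2 0.61 ± 0.16, adjusted p = 0.00156), Gapdh (0.41 ± 0.16, adjusted p = 0.0371), Aldoc, Pgk1 and Suclg1. The log2 difference of Aldoc, 0.41, was 0.027 and not called without PE-low replicate 2. The lowered members were Pfkp, the platelet-type phosphofructokinase (log2 -0.94 ± 0.17, adjusted p = 9.69e-06), Pfkm, the muscle-type one (-0.80 ± 0.23, adjusted p = 0.00294), Dlat, the E2 subunit of pyruvate dehydrogenase (-0.77 ± 0.26, adjusted p = 0.0116), Eno2, the neuronal enolase, and Hk1. Without PE-low replicate 2 the calls numbered 4, with 2055 of all genes called against 2844. Of 10 members named here, 6 (Gapdh, Aldoc, Pgk1, Dlat, Eno2 and Hk1) lost their call when at least 1 library was left out. The near-empty mean of Taldo1, 140.5 CPM, was above all 4 oligodendrocyte-like values.

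In oligodendrocyte precursor-like nuclei 5 members were raised and 4 lowered, where 17.4% and 20.3% of all genes were. Gapdh (log2 0.83 ± 0.22, adjusted p = 0.00254), Pkm (0.82 ± 0.23, adjusted p = 0.00410) and Suclg2 (1.91 ± 0.54, adjusted p = 0.00483) were higher, with Idh2 and Suclg1 also passing at adjusted p = 0.0628 and 0.0922. Suclg2 rested on 13 UMIs, at 17.0, 62.5, 0 and 23.6 CPM, and without PE-low replicate 2 its log2 difference was 0.77 and not called. Because Suclg2, Idh2 and Suclg1 passed the filter on low counts through classes where they are high, their p-values are not read as support. Pfkm (log2 -1.58 ± 0.42, adjusted p = 0.00242), Ogdh (-1.01 ± 0.33, adjusted p = 0.0137), Pfkp (-0.71 ± 0.25, adjusted p = 0.0237) and Sucla2, the ATP-forming beta subunit of succinyl-CoA ligase, were lower. Pfkm had 7 UMIs here. Without PE-low replicate 2, 4 members were called, and without PE-high replicate 2, 5, with 1476 and 1742 of all genes called against 2087. Of the 9, Suclg2, Idh2, Suclg1, Ogdh, Pfkp and Sucla2 lost their call when at least 1 library was left out.

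In striatal projection neuron-like nuclei 10 members were raised and 4 lowered, where 27.9% and 24.8% of all genes were. The shifts were small. Ogdh stood at 145, 152, 120 and 136 CPM, against 103, 108, 132 and 106 CPM, a log2 difference of 0.38 ± 0.11 (adjusted p = 0.00345), and in PE-high replicate 1 it was lower than in excitatory neuron-like nuclei. It was also above the near-empty level in all 4 libraries. Pkm and Gpi1, the glucose 6-phosphate isomerase, had log2 differences of 0.36, Gapdh 0.35 and Ldhb 0.36. Suclg2 went the other way, at 1.62, 1.69, 1.46 and 3.47 CPM over 12 UMIs against 8.34 to 9.33 CPM, a log2 difference of -1.97 ± 0.41 (adjusted p = 4.69e-05). Pfkp (-0.49 ± 0.11, adjusted p = 8.00e-05), Hk1 (-0.36 ± 0.14, adjusted p = 0.0244) and Pfkm (-0.29 ± 0.12, adjusted p = 0.0331) were the other lowered members, of which Hk1 and Pfkm lost their call when at least 1 library was left out. DESeq2 called 8 members in this class, a count given without its share of all genes.

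In inhibitory neuron-like nuclei 2 members were raised and 2 lowered, where 18.4% and 21.1% of all genes were. Idh2 was higher (log2 0.91 ± 0.20, adjusted p = 0.000153), as was Pdhb, the E1 beta subunit of pyruvate dehydrogenase (0.42 ± 0.15, adjusted p = 0.0302). Idh2 passed the filter on low counts through classes other than the excitatory neuron-like one, so its p-value is not read as support. Pfkm (-0.38 ± 0.12, adjusted p = 0.0108) and Pfkp (-0.32 ± 0.11, adjusted p = 0.0138) were lower. The calls numbered 9 without PE-high replicate 1 and 2 without PE-low replicate 2, with 2455 and 1970 of all genes called against 2186. Pdhb, Pfkm and Pfkp lost their call when at least 1 library was left out. In neuroblast or cycling-like nuclei edgeR called 0 members, 1 at an unadjusted p under 0.05, and DESeq2 called 0. Their 51 nuclei gave 3.72% of genes raised and 15.5% lowered, and the median over all genes was itself shifted by a log2 of -0.44.

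Pfkp and Pfkm catalyse the committed step of glycolysis, and both were lower than in excitatory neuron-like nuclei in the striatal projection, inhibitory, oligodendrocyte, oligodendrocyte precursor and microglia-like classes. In astrocyte-like nuclei neither passed. Pfkp stood at 154, 153, 168 and 148 CPM in excitatory neuron-like nuclei and at 114, 92.3, 85.5 and 55.6 CPM in microglia-like nuclei. Its near-empty mean was 152 CPM, so that the lower values lay below both. Each of these 5 comparisons shares the same excitatory neuron-like sums, so they are not independent of each other.

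With the 15% limit more members were called in every class, as were more of all genes in most. Of 39 tested members, 34 were called in astrocyte-like (67.3% of all genes), 32 in oligodendrocyte-like (71.6%), 23 in microglia-like (61.1%), 17 in striatal projection neuron-like (49.8%), 17 in neuroblast or cycling-like (39.1%), 16 in inhibitory neuron-like (44.4%) and 14 in oligodendrocyte precursor-like nuclei (44.2%). In striatal projection, inhibitory, microglia and oligodendrocyte precursor-like nuclei the members' share was below that of all genes. The counts in astrocyte-like and microglia-like nuclei include Hk2, which passed the filter on low counts only through microglia-like sums.

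**Figure D3:**
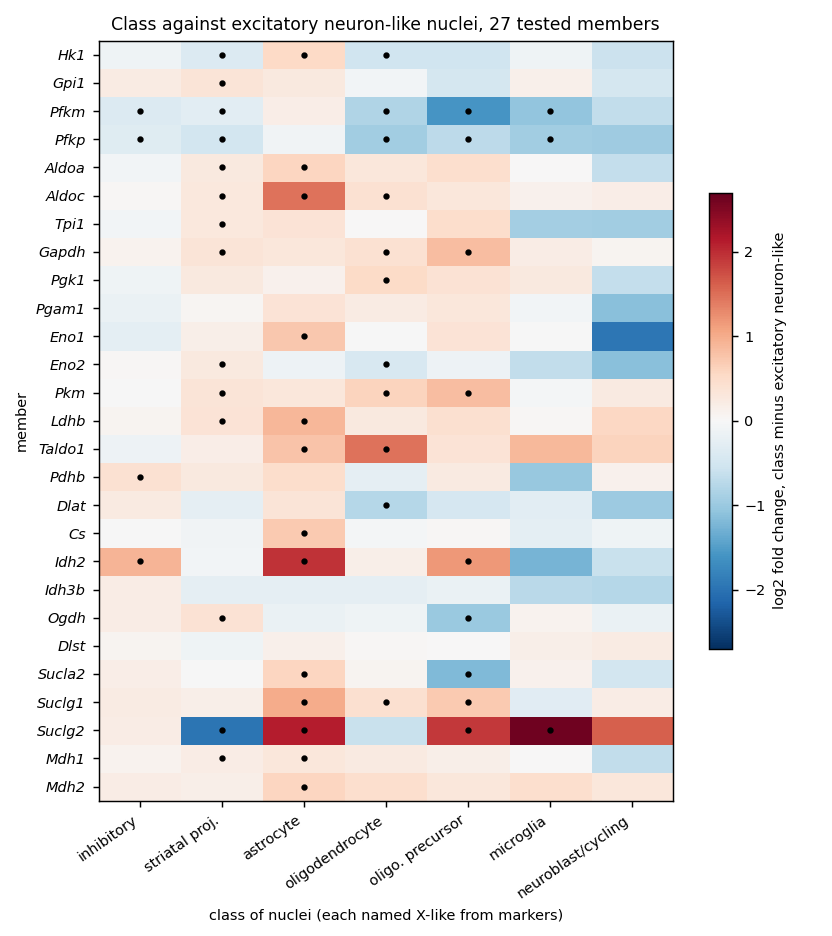
Log2 difference of each tested enzyme between a class and excitatory neuron-like nuclei (colour, n = 4 libraries), with enzymes as rows grouped by pathway and classes as columns, and dots on those with an adjusted p under 0.1. Astrocyte-like nuclei have 13 raised and 0 lowered members, and Pfkp and Pfkm are lowered in 5 of the 7 classes.

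Microglia-like nuclei had 1 raised member and 2 lowered, of 27 tested, where 12.6% and 15% of all genes were raised and lowered. Suclg2 stood at 57.1, 105, 85.5 and 0 CPM over 20 UMIs, with a log2 difference of 2.63 ± 0.47 (adjusted p = 1.63e-05), high in 3 libraries and without a UMI in PE-high replicate 2. Because Suclg2 passed the filter on low counts through classes where it is high, this one included, its p-value is not read as support. Pfkp was lower by a log2 of 0.94 (SE 0.26, adjusted p = 0.00449), as was Pfkm (-1.07 ± 0.38, adjusted p = 0.0377), which had 10 UMIs and lost its call when at least 1 library was left out. Without PE-high replicate 1 the calls numbered 5, with 1830 of all genes called against 1526. The 15% limit kept 1751 microglia-like nuclei. With it 20 members were raised, Hk2 among them, and 3 lowered, where 31.8% and 29.4% of all genes were raised and lowered.

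Hk2, the inducible hexokinase, was the member most limited to 1 class. Of its 38 UMIs in all kept nuclei, 25 (65.8%) lay in microglia-like nuclei, at 15, 8, 0 and 2 UMIs, or 107, 105, 0 and 37.1 CPM. Excitatory neuron-like nuclei had 0 Hk2 UMIs among 12059677, which allows up to 0.249 CPM (3 counts). The pooled microglia-like level of 78.9 CPM was 317 times that limit. The counting error of the 25 microglia-like UMIs is not in this figure, so it is not a strict lower bound. That figure was 163-fold without PE-low replicate 1, which held 15 of the 25 UMIs, and 198-fold without PE-low replicate 2. PE-high replicate 1, with 19 microglia-like nuclei, had 0 UMIs, and its depth allows up to 64.1 CPM. With the 15% limit 77.0% of Hk2 UMIs lay in microglia-like nuclei, at 129.6, 141, 119 and 92.8 CPM, on 64, 49, 49 and 29 UMIs against 2, 1, 3 and 1 UMIs in excitatory neuron-like nuclei. With that limit Hk2 passed the filter on low counts only through the microglia-like sums, so these values are a description with no test. Its calls are counted among the 20 members raised in microglia-like and the 32 raised in astrocyte-like nuclei with that limit, and nothing is read from them.

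Isozyme pairs were compared as log2 ratios of UMIs within a class and library with 0.5 added to each, by an exact sign-flip permutation test over 4 libraries. That test cannot give a two-sided p below 1 in 8, and the smallest adjusted p over 49 class comparisons was 0.360. The ratio of Aldoa to Aldoc was lower in astrocyte-like than in excitatory neuron-like nuclei by a mean log2 of 0.81 (SD 0.29, n = 4), in 4 of 4 libraries, which gives the smallest p of the test. Eno1 to Eno2, the ubiquitous against the neuronal enolase, was higher there by 0.98 (SD 0.54) in 4 of 4 libraries. Ldha to Ldhb had a difference of -0.44 (SD 0.26) in striatal projection neuron-like nuclei and was lower in 4 of 4 libraries. In astrocyte-like nuclei that ratio was higher in 2 of 4 libraries (-0.51, SD 1.47). Idh1 to Idh2 was lower in inhibitory neuron-like nuclei by 1.04 (SD 0.56). In all, 17 of the 49 differences had 1 sign in every library. The 7 Hk1 to Hk2 differences are among them, but excitatory neuron-like nuclei had 0 Hk2 UMIs, so that the added 0.5 and the depth of the class set that ratio, and nothing is read from them. Of the other 42 differences, 10 had 1 sign in every library, and the smallest adjusted p over these was 0.525.

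Whether PE-high EVs changed any enzyme was tested within each class between 2 PE-high and 2 PE-low libraries. No member passed in any class, which with 2 libraries per group does not show that no enzyme changed. Over all nuclei edgeR's quasi-likelihood test called 0 of 42 tested members and 0% of 15190 genes, with 1 member and 723 genes at an unadjusted p under 0.05, and DESeq2 called 0 members and 2 genes. In excitatory neuron-like nuclei 0 of 41 members were called, 0 of them at an unadjusted p under 0.05, where 0.0381% of 13107 genes were called, and DESeq2 called 0. The median log2 difference of members was 0.01 over all nuclei and -0.01 in excitatory neuron-like nuclei. With DESeq2, 0 members were called in any class.

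In striatal projection neuron-like nuclei 0 of 39 members were called, where 0.0278% of 10795 genes were, with a member median of 0.06 and 0 at an unadjusted p under 0.05. In inhibitory neuron-like nuclei the count was 0 of 38 members and 0% of 10141 genes (377 at an unadjusted p under 0.05, 0 of them members), with a median of 0.04. Astrocyte-like nuclei gave 0 of 22 members and 0% of 3666 genes (266 at an unadjusted p under 0.05, 2 of them members), with a median of -0.22. Oligodendrocyte-like nuclei gave 0 of 20 members and 0% of 4328 genes (204 at an unadjusted p under 0.05, 0 of them members), with a median of -0.18. Only 5 members were tested in oligodendrocyte precursor-like nuclei, where 0.0673% of 1486 genes were called, and 4 in microglia-like nuclei, where 0% of 1296 genes were called, so most of the pathway could not be compared in either class. The neuroblast or cycling-like class had no tested member.

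The paper reports Ldhb as raised by PE-high EVs in its excitatory neuron cluster, by a Wilcoxon rank-sum test, and reads this as neuronal stress. That result rests on a larger set of nuclei and on another test than the sums per library used here. The Ldhb values that follow for excitatory neuron-like nuclei are those of the smaller main set. The difference in this class with the 15% limit, whose set is close in size to that of the paper, is not given here. The paper's result is therefore not tested here on a like set of nuclei. Ldhb in excitatory neuron-like nuclei had the values 107 and 79.3 CPM in PE-low and 99.7 and 103 CPM in PE-high libraries. Both PE-high values lay inside the PE-low range, and the log2 difference was 0.16 ± 0.14 (adjusted p = 1.00 by edgeR's quasi-likelihood test), or -0.031 without PE-low replicate 2. In astrocyte-like nuclei Ldhb stood at 231 and 232 CPM in PE-low and 99.4 and 124 CPM in PE-high libraries, without overlap, and its log2 difference of -0.99 ± 0.35 did not pass (adjusted p = 0.642). With the 15% limit the values were 347, 274, 277 and 292 CPM and the groups overlapped. Mdh2, the mitochondrial malate dehydrogenase, stood at 63.6, 68.7, 74.5 and 168 CPM in astrocyte-like nuclei (log2 1.00 ± 0.42, adjusted p = 0.653). PE-high replicate 2 alone was high.

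In microglia-like nuclei Ogdh stood at 92.7 and 92.3 CPM in PE-low and 235 and 223 CPM in PE-high libraries, without overlap but on 46781 to 140218 UMIs per library, and did not pass (log2 1.29 ± 0.50, adjusted p = 0.993). The other tested members there were Mdh1 (0.20 ± 0.49), Aldoa (0.12 ± 0.53) and Gapdh (-0.64 ± 0.61). With the 15% limit the Ogdh difference was 0.41. Hk2 over all nuclei had 21, 15, 0 and 2 UMIs and a log2 difference of -3.30 ± 0.81 (adjusted p = 0.847). It passed the filter on low counts only through the PE-low libraries, so nothing is read from its being the 1 member at an unadjusted p under 0.05. Hk2 was called when that filter was dropped (log2 -3.31), with a replicate block (log2 -3.19) and when PE-low replicate 2 was left out (log2 -3.68), which leaves 1 PE-low library that is assumed to vary like the PE-high pair. Among nuclei kept with the 3% limit the PE-high libraries had fewer microglia-like ones, 19 and 41 against 58 and 46. With the 15% limit this was not so, at 510 and 416 in PE-high against 468 and 357 in PE-low libraries. Within the microglia-like nuclei of the 3% limit Hk2 stood at 107 and 105 CPM in PE-low and 0 and 37.1 CPM in PE-high libraries. With the 15% limit Hk2 had 79, 71, 63 and 35 UMIs and a log2 difference of -0.17 over all nuclei, and -0.30 ± 0.25 in microglia-like nuclei.

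The other named members did not pass either. Idh1 had a log2 difference of -0.42 ± 0.22 over all nuclei (11.1 and 13.2 CPM against 8.26 and 9.18 CPM) and -0.52 ± 0.31 in excitatory neuron-like nuclei. Rpia had 0.32 ± 0.21 and 0.45 ± 0.29 in the same sums, and Ldha -0.35 ± 0.24 in excitatory neuron-like nuclei. In oligodendrocyte-like nuclei Mdh1 had 0.54 ± 0.31. Leaving out PE-low replicate 1 made calls for Mdh2 and Aldoa over all nuclei, at log2 0.35 and 0.32, and for Mdh1 and Mdh2 in striatal projection neuron-like nuclei, at 0.59 and 0.69, while 937 and 330 of all genes were then called. PE-low replicate 2 was then the only library of its group.

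**Figure D4:**
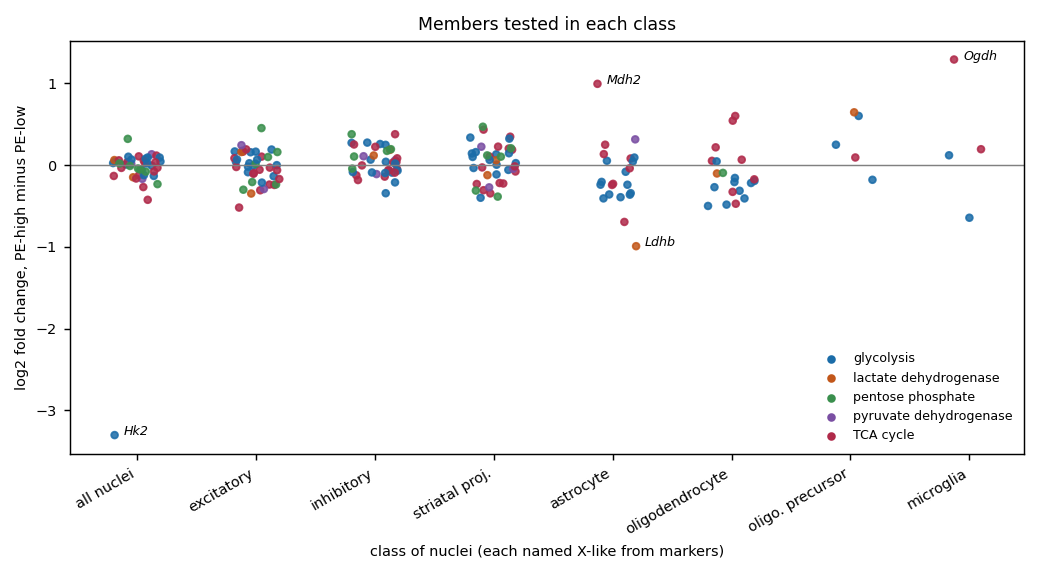
Log2 difference between PE-high and PE-low libraries (n = 2 per group) (y axis) of each tested enzyme (1 point each, coloured by pathway and spread sideways for legibility) in all nuclei and in 7 classes (x axis). Most values lie near 0, and none has an adjusted p under 0.1. Hk2 over all nuclei lies at -3.30, Ogdh in microglia-like nuclei at 1.29 and Ldhb in astrocyte-like nuclei at -0.99.

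Whether the effect of PE-high EVs differed from that in excitatory neuron-like nuclei was tested as the interaction of class and treatment. edgeR called 0 of 27 members in any class, while 0.0181% of all 5531 genes were called in the neuroblast or cycling-like and in the striatal projection neuron-like class and 0% in the others. With the 15% limit it again called 0 members. DESeq2 was not run on this term. At an unadjusted p under 0.05 there were 3 members among 319 genes in neuroblast or cycling-like, 2 among 352 in astrocyte-like, 1 among 255 in microglia-like, 1 among 237 in oligodendrocyte-like, 1 among 238 in oligodendrocyte precursor-like, 1 among 150 in striatal projection neuron-like and 0 among 100 in inhibitory neuron-like nuclei.

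Other genes of these pathways, 54 transporters, subunits and regulators listed besides the members, were counted by the same tests. Of them 14 were tested between classes. Astrocyte-like nuclei had 5 raised, among them Pcx, the pyruvate carboxylase that replenishes oxaloacetate (log2 2.09), Me1, a malic enzyme (0.60), Dld (0.50) and Sdha (0.37). They had 4 lowered, among them Slc16a7, a monocarboxylate transporter (-1.83), and Slc2a3, the neuronal glucose transporter (-0.91). Of all tested genes, 25.5% were raised and 25.7% lowered in astrocyte-like nuclei. Slc2a3 was also lower in oligodendrocyte-like (-1.19) and microglia-like nuclei (-0.92). In oligodendrocyte-like nuclei 2 were raised and 4 lowered, where 24.7% and 26.7% of all genes were. The counts were 4 and 2 in striatal projection neuron-like nuclei (27.9% and 24.8% of all genes). They were 3 and 5 in inhibitory neuron-like nuclei (18.4% and 21.1%) and 0 and 2 in microglia-like nuclei (12.6% and 15%). With 14 genes tested, nothing about the pathways is read from these counts. Between PE-high and PE-low libraries 41 were tested over all nuclei, and edgeR called 0 there or in any class, with 1 at an unadjusted p under 0.05 over all nuclei, while DESeq2 also called 0.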

How the data were processed

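Single-nucleus RNA was measured with the 10x 3' v3.1 kit. Per the submitters' processing notes, Cell Ranger 7.1.0 and mm10 were used. For each library the authors deposited an unfiltered matrix of UMI counts, with no normalization. The deposited barcode and gene lists hold no measurement (unit other). Whether intronic reads were counted is not given in the sources used here.

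Barcodes were called as nuclei by rules like those of Cell Ranger, with a minimum at 10 times below the 0.99 quantile of UMIs and a test of other barcodes with at least 500 UMIs against those ranked 45000 to 90000 (FDR 0.01, 10000 simulations). The filter required 200 to 2500 genes and no more than 3% of UMIs from mitochondrial genes. No doublet caller was run. Counts were scaled to 10000 per nucleus. Clusters came from 2000 variable genes, with the members, the other pathway genes and mitochondrial genes held out, using 30 components and 20 neighbours, by the Leiden method (resolution 0.8, scanpy 1.11.5, leidenalg 0.10.2). The 25 first clusters became 35 after mixed ones were divided, and 2 stayed unnamed. A marker counted at 20 CPM and 1.5 times its median over clusters, and as strong at 3 times. These naming thresholds were set after clusters had been seen and were revised because earlier versions misnamed some.

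CPM values were computed here per class and library. UMIs summed per class and library were tested with edgeR 4.0.16 in R 4.3.3 (filterByExpr, TMM, quasi-likelihood test). Adjusted p-values follow Benjamini and Hochberg across every gene tested, and a call needs less than 0.1. Library was a block in class comparisons. The scripts were tested on simulated counts with a fixed spread, in which 200 genes were changed by a log2 of 1. Recovered were 13.5% of them over all nuclei, 12.5% in excitatory neuron-like, 22% in microglia-like and 8% in astrocyte-like nuclei for PE-high against PE-low. For astrocyte-like against excitatory neuron-like nuclei the share was 20.5%. Most changes of that size were thus missed in the simulation. Alternatives were DESeq2 1.42.0, no filter, 15% mitochondrial UMIs, no upper limit on genes, a threshold of 0.05, no library block, a replicate block and leaving out each library. Floors are 3 counts, and they cover counting error only.

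The members and lists were chosen with earlier results of these data known. Named with full statistics were, per class comparison, up to 5 raised and 5 lowered members with the smallest p among those called, per PE comparison the 2 raised and 2 lowered with the smallest p, and Ldhb. Hk2 and Idh1 between classes, members set against near-empty barcodes, the ratios named and single genes of the other pathway list were chosen after their values were seen. The name and values of 1 further gene of that list are not reported here. Gene positions are those of the GENCODE M21 annotation of GRCm38, which is mm10.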

Additional observations from a re-analysis of the deposited data

How the results depend on the processing

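With 15% in place of 3% mitochondrial UMIs, members called rose in number from 13 to 34 in astrocyte-like, 3 to 23 in microglia-like, 11 to 32 in oligodendrocyte-like, 4 to 16 in inhibitory neuron-like, 9 to 14 in oligodendrocyte precursor-like, 14 to 17 in striatal projection neuron-like and 0 to 17 in neuroblast or cycling-like nuclei, and isozyme differences of 1 sign from 17 to 29. Without Hk1 to Hk2, left out after the data were seen, these were 10. These fits hold more nuclei and test 39 rather than 27 members. Without the filter on low counts the calls were 6 in microglia-like, 7 in oligodendrocyte-like, 9 in striatal projection neuron-like and 1 in neuroblast or cycling-like nuclei. Without the upper limit on genes they were 6 in microglia-like and 9 in inhibitory neuron-like nuclei. An adjusted p of 0.05 left 6 in oligodendrocyte-like nuclei, and DESeq2 gave 8 in striatal projection neuron-like nuclei. For no filter, no upper limit on genes, the adjusted p of 0.05 and DESeq2, the share of all genes called is not given here. Nothing about the members is therefore read from those counts. The cause of these differences was not tested.

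Leaving out 1 library at a time gave 5 to 15 called members in astrocyte-like, 2 to 5 in microglia-like, 4 to 11 in oligodendrocyte-like, 2 to 9 in inhibitory neuron-like, 4 to 7 in oligodendrocyte precursor-like and 0 to 1 in neuroblast or cycling-like nuclei. All genes called moved too, with 2150 to 3149, 1028 to 1830, 2055 to 3141, 1958 to 2455, 1476 to 2185 and 748 to 1211 in the same order. For PE-high against PE-low it gave 0 to 2 over all nuclei and 0 to 2 in striatal projection neuron-like nuclei, where a lone library is assumed to vary like the other group. It turned the sign of differences that had not passed: Dlat (-0.0074 to 0.24) and Ldhb (-0.086 to 0.24) over all nuclei, Ldhb in excitatory (-0.031 to 0.37), inhibitory (-0.28 to 0.29) and striatal projection neuron-like nuclei (-0.16 to 0.29), and Mdh1 in microglia-like nuclei (-0.13 to 0.73). In glia these were Dlat in astrocyte-like (-0.40 to 0.66), Idh3b (-0.96 to 1.66) and Ldhb (-0.47 to 0.32) in oligodendrocyte-like, and Aldoa (-0.062 to 1.07) and Pkm (-2.08 to 0.11) in oligodendrocyte precursor-like nuclei. The 15% limit turned Dlat (-0.030) and Sucla2 (0.080) in astrocyte-like and Ldhb (0.19) and Suclg1 (0.13) in oligodendrocyte-like nuclei, and leaving out clusters with neuronal markers turned Pkm (0.059) in oligodendrocyte precursor-like nuclei.

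Replicate numbers are shared by the groups, but nothing in the labels pairs the libraries, and the correlation of same-numbered deviations was 0.14 over 12507 genes. With a replicate block 1 member was called over all nuclei, Hk2 (log2 -3.19), as without the filter on low counts (1 member), and 0 in every other class tested. All called genes then numbered 198 over all nuclei, 105 in astrocyte-like and 45 in excitatory neuron-like nuclei, against 0, 0 and 5. Without the filter 140 genes were called over all nuclei and 43 in excitatory neuron-like nuclei. Microglia-like nuclei had 46781 to 140218 UMIs per library, and 4 members could be tested between PE-high and PE-low.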
